A study of Mus musculus with 9 samples.

Results

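The genes described here are 10 members of the inflammatory programme that is switched on together when NF-kB is active: the chemokines Ccl2, Ccl3, Ccl4, Cxcl1 and Cxcl10, the cytokines Il1b, Il6 and Lif, and the feedback genes Nfkbia and Tnfaip3. They were chosen by symbol from the 55487 genes of the count table, and all 10 were among the 21049 genes tested. RNA-seq of mouse retinal explants compared 5 control libraries with 4 libraries of explants given 2-deoxy-D-glucose (2-DG), a sugar that cells take up but cannot burn and that inhibits glycolysis. Both groups were neural retinas from C57BL/6J wild-type animals of postnatal day 28, freed of pigment epithelium, cornea and iris, kept 48 h in culture at 5 mM glucose, and held for 1 h in Krebs' Ringer before RNA was taken. The 2-DG group also received 20 mM 2-DG during culture, and the control group received none. The comparison asks whether the inflammatory transcripts of a cultured retina change when glycolysis is blocked.

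NF-kB is a family of transcription factors that rests in the cytoplasm, bound by inhibitor proteins such as the product of Nfkbia. Signals from damage, microbes, tumor necrosis factor or interleukin-1 activate the IKK kinases, the inhibitor is destroyed, and NF-kB enters the nucleus and turns on chemokines, cytokines and its own inhibitors. In the retina these transcripts are known from microglia, Müller glia and the endothelium of vessels, and explanted tissue has been cut from its blood supply and optic nerve, which is itself an injury.

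Library totals ran from 11318087 to 51802230 estimated counts, and the biological coefficient of variation of the fit was 51.5%. The summed level of 10 rod markers lay between 5336 and 17653 CPM (counts relative to a fixed total per library) in 8 libraries and at 45954 CPM in control replicate 2. That library therefore stood apart, and the gene comparisons are given with it and without it, while transcripts were fitted with all 9 libraries only. Markers of the pigment epithelium summed to 103 CPM in 2-DG replicate 3, against 1.61 to 20.9 CPM in the other 8 libraries, although the labels describe retinas without this tissue. All levels in CPM are on the library size scaled by TMM. The samples are bulk tissue, so fewer cells of a type and less RNA per cell cannot be told apart.

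The stretches of DNA just before the start sites are shown for 5 members, because the members were high in the same libraries and these windows differ in which inflammatory motifs they hold. Each is the 250 bases before the RefSeq start on GRCm38.p6, written 5′ to 3′ on the strand of the gene, with motif matches in capitals. The motifs searched on both strands were a kappaB-like GGGNNTTNCC, an interferon-response-like GAAANNGAAA, and an AP-1-like TGANTCA, where N is any base. Positions count back from the start site, the base just before it being -1.
Cxcl10, chr5:92348890-92349139, minus strand: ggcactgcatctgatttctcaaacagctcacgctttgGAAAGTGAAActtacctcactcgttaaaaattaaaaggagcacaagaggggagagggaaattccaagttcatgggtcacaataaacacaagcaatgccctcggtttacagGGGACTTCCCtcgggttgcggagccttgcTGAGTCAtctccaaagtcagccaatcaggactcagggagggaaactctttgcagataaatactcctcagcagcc
Cxcl1, chr5:90890995-90891244, plus strand: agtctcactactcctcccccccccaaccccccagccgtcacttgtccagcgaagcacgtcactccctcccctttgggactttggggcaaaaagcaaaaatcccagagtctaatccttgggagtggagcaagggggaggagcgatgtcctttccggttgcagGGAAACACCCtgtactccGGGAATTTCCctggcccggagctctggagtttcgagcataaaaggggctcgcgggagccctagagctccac
Il6, chr5:30012864-30013113, plus strand: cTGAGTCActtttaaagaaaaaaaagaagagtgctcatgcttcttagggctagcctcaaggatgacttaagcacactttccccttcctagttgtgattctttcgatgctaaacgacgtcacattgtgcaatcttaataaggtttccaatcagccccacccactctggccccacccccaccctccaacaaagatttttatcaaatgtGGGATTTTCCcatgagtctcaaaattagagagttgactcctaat
Nfkbia, chr12:55492648-55492897, minus strand: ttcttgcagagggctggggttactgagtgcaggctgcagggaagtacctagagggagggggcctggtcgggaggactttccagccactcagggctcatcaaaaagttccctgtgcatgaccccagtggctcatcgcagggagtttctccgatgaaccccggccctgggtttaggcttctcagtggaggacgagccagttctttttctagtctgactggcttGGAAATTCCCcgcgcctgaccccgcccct
Lif, chr11:4257318-4257567, plus strand: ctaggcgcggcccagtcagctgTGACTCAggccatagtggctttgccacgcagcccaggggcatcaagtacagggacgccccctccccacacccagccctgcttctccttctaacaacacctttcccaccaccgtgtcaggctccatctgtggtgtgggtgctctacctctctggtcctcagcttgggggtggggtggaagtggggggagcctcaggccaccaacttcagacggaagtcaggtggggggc

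Cxcl10 held one match of each kind: the kappaB-like GGGACTTCCC from -103, the interferon-response-like GAAAGTGAAA from -213, and TGAGTCA from -74. Cxcl1 held 2 kappaB-like matches that do not overlap, GGGAATTTCC from -71 and GGAAACACCC from -89. Il6 held GGGATTTTCC from -44 and an AP-1-like match from -249, Nfkbia held GGAAATTCCC from -29, and Lif held an AP-1-like match alone, from -228. Windows were found for 8 of the 10 members, 9 windows with the 2 of Tnfaip3. A kappaB-like match was in 5 of these 9 (Cxcl10, Cxcl1, Il6, Nfkbia and, in 1 of its 2 windows, Tnfaip3 with GGAAATCCCC from -12), against 4.11% of all 32851 promoter windows. The members were chosen as genes of the NF-kB programme, so this share is not an independent result. An interferon-response-like match was in 1 of the 9 windows, against 2.98% of windows, and an AP-1-like match in 4 of the 9, against 6.75%. The windows of Il1b and Ccl3 held none of these letters. A match describes the sequence and does not show a bound site.

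Cxcl10 (ENSMUSG00000034855, chr5:92346638-92348889) encodes an interferon-induced chemokine that draws T cells through Cxcr3, and it had the smallest p-value of the 10. Its level in control replicates 1 to 5 was 110, 6.30, 103, 529 and 587 CPM, and in 2-DG replicates 1 to 4 it was 15.4, 25.2, 12.6 and 129 CPM. Apart from control replicate 2, the controls lay at 103 CPM and above, and 3 of the 4 2-DG libraries lay at 25.2 CPM and below, with 2-DG replicate 4 above the 2 lower of these controls. The means were 267 ± 269 CPM (SD, n = 5) in control and 45.7 ± 56.1 CPM (SD, n = 4) in 2-DG. The log2 fold change was -2.55 ± 1.14 (SE), with an unadjusted edgeR p of 0.0477 and an adjusted p of 0.689, so the difference did not pass the threshold of 0.05. Without control replicate 2 the log2 fold change was -2.86 ± 0.93 (edgeR adjusted p = 0.320).

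The other 4 chemokines showed no such separation. Ccl2 (ENSMUSG00000035385, chr11:82035571-82037453), which recruits monocytes, measured 244, 164, 348, 1489 and 1612 CPM in control and 196, 353, 179 and 1378 CPM in 2-DG. Its 3 high libraries were control replicates 4 and 5 and 2-DG replicate 4, and the 2 groups covered nearly the same range (log2 fold change -0.55 ± 0.83, edgeR adjusted p = 0.892). Cxcl1 (ENSMUSG00000029380, chr5:90891241-90893115), which recruits neutrophils through Cxcr2, measured 133, 271, 225, 1445 and 2382 CPM in control and 151, 325, 182 and 2990 CPM in 2-DG. Its highest library of all was 2-DG replicate 4, and its log2 fold change was 0.03 ± 1.07 (edgeR adjusted p = 0.996). That sign turned under other scalings, for example to -0.19 with library size alone, and to -0.20 without control replicate 2.

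Ccl3 (ENSMUSG00000000982, chr11:83647844-83649355) and Ccl4 (ENSMUSG00000018930, chr11:83662584-83664683) are neighbouring genes whose products attract leukocytes. Ccl3 measured 11.5, 20.2, 26.2, 135 and 206 CPM in control and 16.0, 19.2, 13.2 and 232 CPM in 2-DG. Ccl4 measured 5.54, 7.88, 11.0, 52.3 and 69.8 CPM in control and 6.96, 6.32, 5.02 and 87.5 CPM in 2-DG. In both genes 3 of 5 control and 3 of 4 2-DG libraries shared one low range, and the remaining 3 libraries lay several times higher. The pair kept a narrow ratio, with Ccl4 between 32.8% and 48.2% of the Ccl3 counts in every library, while each gene varied 17.9-fold (Ccl3) or 12.6-fold (Ccl4) among controls alone. The log2 fold changes were -0.19 ± 1.06 for Ccl3 and -0.15 ± 1.02 for Ccl4.

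**Figure D1:**
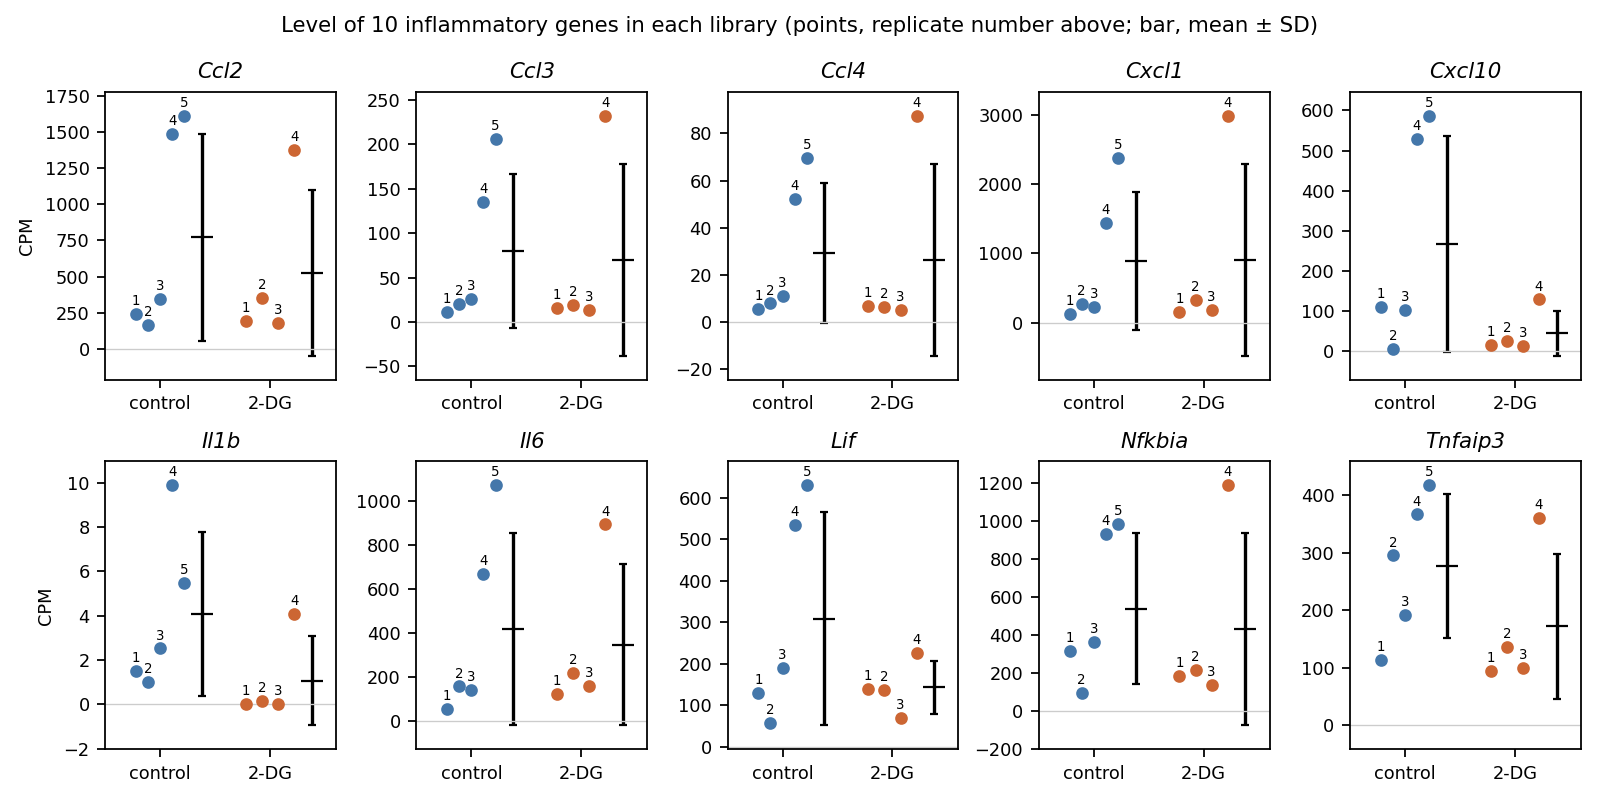
Level of each of the 10 genes in CPM on a linear axis, 1 panel per gene with its own scale. Points are single libraries with the replicate number above them, blue for control (n = 5) and orange for 2-DG (n = 4), and the black bar is the mean ± SD. In every panel control replicates 4 and 5 and 2-DG replicate 4 are the 3 highest points.

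Among the cytokines, Il1b (ENSMUSG00000027398, chr2:129364570-129371139), the precursor of interleukin-1 beta, was the least abundant member. It measured 1.50, 1.00, 2.52, 9.88 and 5.49 CPM in control, from 39, 14, 33, 375 and 170 counts. In 2-DG replicates 1 to 4 it had 0, 5, 1 and 142 counts, and the last of these was 4.06 CPM. Thus 3 of the 4 2-DG libraries were below every control, and 2-DG replicate 4 lay above 3 of the 5 controls. A count of 0 in 2-DG replicate 1 allows up to 0.255 CPM (3 counts), still under the lowest control. Counts were sufficient to place these 3 libraries below the controls, but the spread of the fourth left the log2 fold change at -1.92 ± 1.32 (edgeR adjusted p = 0.789).

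Lif (ENSMUSG00000034394, chr11:4257557-4272514) encodes a cytokine that signals through gp130 and protects photoreceptors in injured retina. It measured 130, 56.9, 190, 535 and 631 CPM in control and 139, 137, 68.6 and 226 CPM in 2-DG. The 2 highest controls stood above every 2-DG library, and the other 3 controls lay within or just below the 2-DG range. The log2 fold change was -1.11 ± 0.65 (edgeR adjusted p = 0.752), and without control replicate 2 it was -1.38 ± 0.55 (edgeR adjusted p = 0.476), with an unadjusted p of 0.0326. Il6 (ENSMUSG00000025746, chr5:30013114-30019981), which also acts through gp130, measured 54.0, 158, 143, 671 and 1074 CPM in control and 123, 218, 158 and 896 CPM in 2-DG. Here the lowest library was a control, and the log2 fold change was -0.27 ± 0.87 (edgeR adjusted p = 0.954).

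Both feedback genes restrain NF-kB, Nfkbia by holding it in the cytoplasm and Tnfaip3 (A20) by editing ubiquitin chains upstream of the IKK kinases. Nfkbia (ENSMUSG00000021025, chr12:55489410-55492647) measured 317, 96.2, 361, 931 and 981 CPM in control and 182, 213, 137 and 1186 CPM in 2-DG. Its 3 low 2-DG libraries lay under every control other than control replicate 2, and its highest library was 2-DG replicate 4 (log2 fold change -0.32 ± 0.78, edgeR adjusted p = 0.936). Tnfaip3 (ENSMUSG00000019850, chr10:19000910-19015657) measured 114, 295, 191, 367 and 417 CPM in control and 93.8, 136, 99.3 and 360 CPM in 2-DG. It varied least of the 10 among controls, 3.66-fold, and its log2 fold change was -0.69 ± 0.49 (edgeR adjusted p = 0.790). Control replicate 2 was the lowest library for Nfkbia and the middle control for Tnfaip3: its Tnfaip3 counts were 307% of its Nfkbia counts, against 30.4% to 72.6% in the other 8 libraries. The part of the high rod RNA of that library in this ratio was not tested.

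Across the list, 9 of 10 members had a negative log2 fold change and their median was -0.44, while 50.8% of all genes tested had a negative value and the median of all genes was -0.01. At an adjusted edgeR p under 0.05, 0 of 10 members were called, against 0% of all genes. At an unadjusted p under 0.05, 1 member (Cxcl10) was lower, against 4.83% of all genes, and 0 were higher, against 2.42%. The groups did not overlap, with 2-DG lower, for 0 of 10 members, against 1.41% of all genes. DESeq2 likewise called 0 members after adjustment. The estimates of the list lay mostly below 0, and with the spread between libraries no member passed the test.

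Without control replicate 2, 10 of 10 members had a negative log2 fold change with a median of -0.63, against 0.03 for all genes. Beside Cxcl10, Lif and Cxcl1, given above, Il1b was then -2.16 ± 1.39, Ccl2 -0.81 ± 0.82, Tnfaip3 -0.66 ± 0.54, Nfkbia -0.59 ± 0.74, Il6 -0.48 ± 0.93, Ccl3 -0.43 ± 1.13 and Ccl4 -0.39 ± 1.09. The adjusted test called 0 members, against 0.0775% of all genes (16 genes). The unadjusted test gave 2 lower members (Cxcl10 and Lif), against 6.07% of all genes, and 0 higher, against 2.92%. Non-overlapping groups with 2-DG lower were found for 0 members, against 4.53% of all genes.

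**Figure D2:**
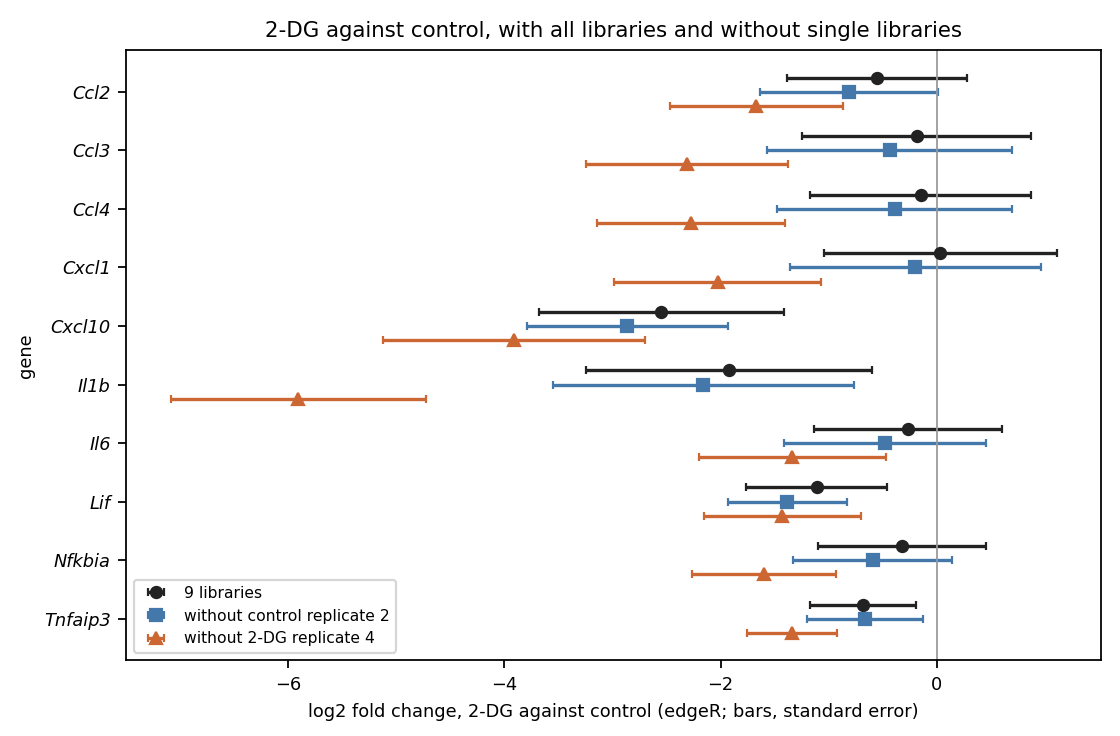
Log2 fold change of 2-DG against control for each gene from edgeR, with bars of 1 standard error, for all 9 libraries (black circles), without control replicate 2 (blue squares) and without 2-DG replicate 4 (orange triangles). Every triangle lies to the left of its circle, from -1.34 for Il6 to -3.91 for Cxcl10, and that of Il1b lies farther left but rests on 0, 5 and 1 counts in 2-DG.

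The variation within the groups was shared by the members. In all 10 genes the 3 highest of the 9 libraries were control replicates 4 and 5 and 2-DG replicate 4, a pattern found in 8.8% of all genes tested and singled out after its values had been seen. Control replicate 5 was highest for 5 members, 2-DG replicate 4 for 4 and control replicate 4 for 1 (Il1b). Together the 10 genes took 0.624% and 0.787% of the counts in control replicates 4 and 5 and 0.614% in 2-DG replicate 4, and between 0.0891% and 0.174% in the other 6 libraries. By this share 2-DG replicate 4 lay beside the 2 high controls and well above the other 3 2-DG libraries.

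**Figure D3:**
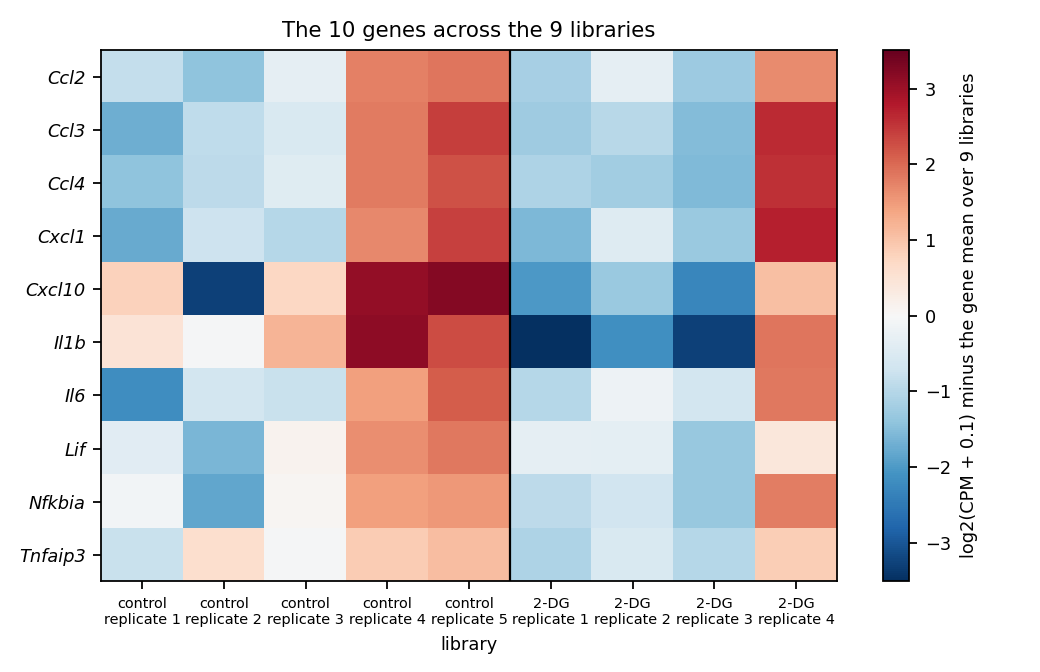
Log2(CPM + 0.1) of each gene in each library minus the mean of that gene over the 9 libraries, red above and blue below the mean. The columns of control replicates 4 and 5 and 2-DG replicate 4 are red in all 10 rows, palest for Lif and Tnfaip3 in 2-DG replicate 4, and the darkest blue cells are Il1b in 2-DG replicates 1 and 3 and Cxcl10 in control replicate 2.

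2-DG replicate 4 was singled out for its high levels of these same members, so the estimates of all 10 were lower without it, and the counts that follow are a description. Leaving out control replicate 4 or 5 or 2-DG replicate 1, 2 or 3 instead gave 0 members at an unadjusted p under 0.05. Without 2-DG replicate 4 the median log2 fold change of the members was -1.85, and 6 of 10 members were lower at an unadjusted p under 0.05, against 9.49% of all genes: Ccl3, Ccl4, Cxcl10, Il1b, Nfkbia and Tnfaip3. Il1b was the 1 member whose groups did not overlap, against 4.63% of all genes. With 0, 5 and 1 counts in the 2-DG libraries that remained, it passed the filter through controls alone, and no fold is given. Leaving out 2-DG replicate 3, which held the pigment epithelium markers, gave -2.23 for Cxcl10 and -1.50 for Il1b. With either library left out, none of the 10 passed after adjustment. A limma-voom fit of all 9 libraries, which gives each library a quality weight, gave 2-DG replicate 4 the lowest weight (0.263) and control replicate 2 the next (0.275). In that fit Cxcl10 (log2 fold change -3.36, adjusted p = 0.0387) and Il1b (adjusted p = 0.0125, with its 3 low 2-DG libraries at 0, 5 and 1 counts) passed the threshold, 2 of 10 members against 5.81% of all genes, and 7 members were lower at an unadjusted p under 0.05, against 15.4% of all genes. These were the only member calls after adjustment among the 20 alternative fits.

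Dividing by the summed counts of the 10 genes sets the shared level aside and shows the make-up of the list. Cxcl10 made up 9.79%, 0.585%, 6.43%, 8.58% and 7.36% of the summed counts in control replicates 1 to 5. In 2-DG replicates 1 to 4 it made up 1.66%, 1.76%, 1.48% and 1.73%. The 4 2-DG libraries, 3 with a low and 1 with a high total, thus held nearly the same Cxcl10 share, and 4 of 5 controls lay at least at 6.43%. Control replicate 2 (95% Wilson interval 0.475% to 0.720%) was the exception, below all 2-DG libraries. Intervals cover counting error only.

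Il1b made up 0.134%, 0.0931%, 0.157%, 0.160% and 0.0690% of the summed counts in control, and 0%, 0.0109%, 0.00217% and 0.0542% in 2-DG. The 2 groups did not overlap, although the lowest control (95% Wilson interval 0.0593% to 0.0801%) and the highest 2-DG library (0.0460% to 0.0639%) had overlapping intervals. In 2-DG replicate 1, 0 of 10875 counts allow a share of up to 0.0276% (3 counts). For the other 8 members the shares of the groups overlapped, also without control replicate 2. Set against the other 9 members on the log2 scale, Il6 did not overlap without control replicate 2, at a level of at most 1.70 above their mean in control and at least 1.82 in 2-DG, and with that library it overlapped. That mean holds Cxcl10 and Il1b, which were lower in 2-DG and pull it down there. Every other member is raised by this, so the gap is not read as a change of Il6. Cxcl1 took 11.8% to 29.9% of the summed counts in control libraries and 16.3% to 39.9% in 2-DG libraries, and Il6 took 4.82% to 14.7% and 11.96% to 18.5%.

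The contrast of the 2 CXC chemokines shows the same in 1 number. Cxcl10 counts were 82.7%, 2.33%, 45.8%, 36.6% and 24.6% of the Cxcl1 counts in control replicates 1 to 5, and 10.2%, 7.76%, 6.95% and 4.33% in 2-DG. Apart from control replicate 2, every control exceeded every 2-DG library. These shares and ratios were examined after the values had been seen, and they are given as descriptions with no test.

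**Figure D4:**
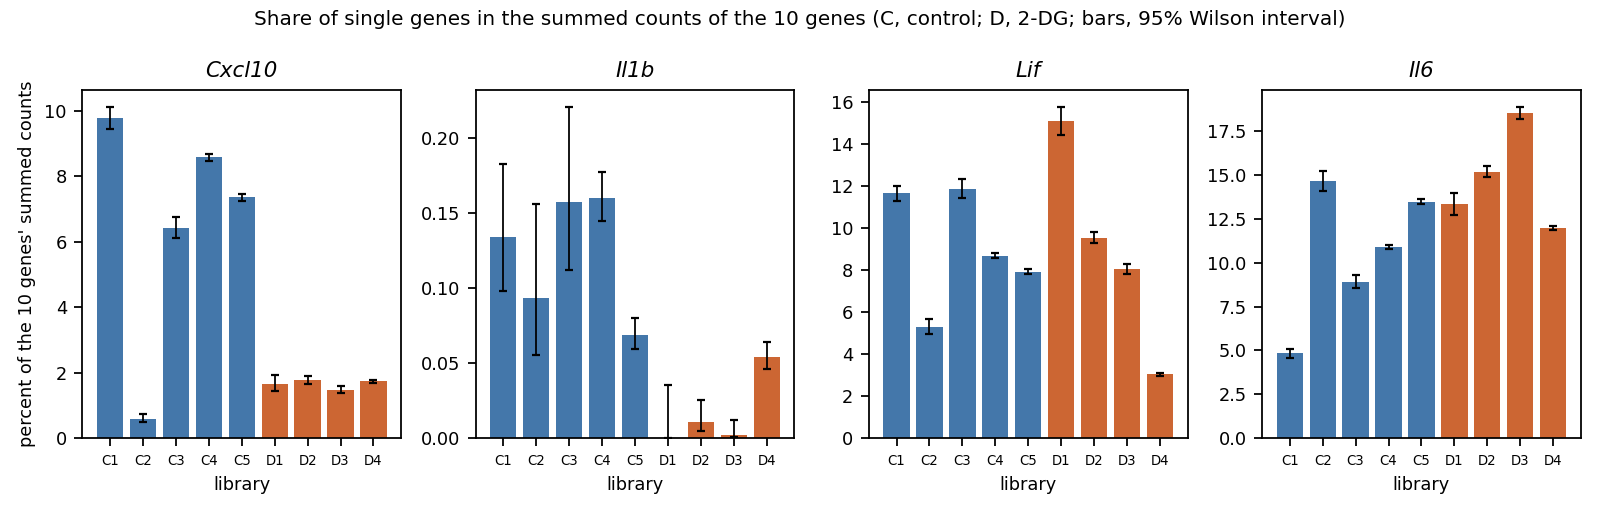
Percent of the summed counts of the 10 genes taken by Cxcl10, Il1b, Lif and Il6 in each library, on linear axes from 0, with C for control (blue), D for 2-DG (orange) and bars for the 95% Wilson interval, which covers counting error only. The 4 orange Cxcl10 bars stand between 1.48% and 1.76%, under all blue bars but that of control replicate 2, and the Lif and Il6 bars of the groups overlap.

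Per transcript length, in estimated counts per base of transcript brought to one common total per library, the median level over the 9 libraries was highest for Ccl2 (974), followed by Nfkbia (661), Cxcl1 (575), Il6 (340), Cxcl10 (157), Tnfaip3 (108), Lif (83.8), Ccl3 (56.7), Ccl4 (25.0) and Il1b (2.76). The ranges over libraries of neighbours in this order overlapped, except that Il1b (0 to 15.2) stayed under Ccl4 (16.4 to 188). The order differed between the groups: the median of Cxcl10 was 247 in control, above Lif (125), Tnfaip3 (116) and Ccl3 (85.4), and 43.2 in 2-DG, below Lif (80.1), Tnfaip3 (62.0) and Ccl3 (52.9). Likewise the median of Nfkbia was 769 in control, above Cxcl1 (575) and Il6 (334), and 388 in 2-DG, below Cxcl1 (584) and Il6 (402). Most of the counts came from 1 coding transcript per gene: Ccl2-201 held 97.7%, Cxcl1-201 98.0%, Cxcl10-201 94.8% and Il6-201 79.8% of their gene's counts. Lif was divided between Lif-201 (50.9%) and Lif-202 (48.5%), and Nfkbia between the coding Nfkbia-201 (74.6%) and the retained-intron transcript Nfkbia-202 (25.4%).

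Of the 28 transcripts of the members, 23 were tested, and 0 were called after adjustment, against 0% of all 62900 transcripts. At an unadjusted p under 0.05, 1 was lower, against 2.28%: the retained-intron Cxcl10-204, with a log2 fold change of -3.33 ± 1.14. Another 1 was higher, against 1.17%: Il6-203, a minor coding transcript with 4.01% of the Il6 counts, at 1.63 ± 0.67. How surely reads could be assigned to one transcript or another is not in these values.

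Other genes of the pathway were read from fixed lists, and 0 genes of these lists passed after adjustment. Among 20 other chemokines tested, 15 had a negative log2 fold change (median -0.59) and 0 passed at an unadjusted p under 0.05. Cxcl2, a close relative of Cxcl1, was the most abundant, at 212, 104, 314, 2054 and 1897 CPM in control and 83.8, 154, 46.1 and 2301 CPM in 2-DG. It had the same 3 high libraries, as did 9 of the 20 chemokines, and Xcl1 had 0 counts in every library. Ccl9 had the smallest p (-1.16 ± 0.61, edgeR adjusted p = 0.730). Of the 20, 2 were lower at an unadjusted p under 0.05 without control replicate 2, Ccl9 (-1.38) and Cxcl12 (-0.98), the latter named after its values were seen, and the median was -0.71.

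Among 20 other cytokines, 15 were negative (median -0.70), 2 beside the scarce Il10 had an unadjusted p under 0.05, and 10 had the same 3 high libraries. Tnfsf9, a T cell costimulatory ligand (4-1BB ligand), measured 8.15, 6.94, 13.9, 18.8 and 35.0 CPM in control and 2.38, 2.83, 3.98 and 5.46 CPM in 2-DG. Its groups did not overlap even though 2-DG replicate 4 was included (log2 fold change -2.17 ± 0.52, edgeR adjusted p = 0.514). Il10, which dampens inflammation, was near the detection limit, at 0.308, 0, 0.687, 1.79 and 1.81 CPM in control and 0, 0, 0 and 0.143 CPM in 2-DG. It passed the filter on low counts through control libraries alone, so neither a fold nor a test is given. Il33, an alarmin, was at 31.6 to 261 CPM in control and 47.6 to 129 CPM in 2-DG (-1.17 ± 0.53, edgeR adjusted p = 0.689). The most abundant were Csf1 (-1.32 ± 0.84) and Il11 (0.20 ± 0.77). The median without control replicate 2 was -0.72. In that fit 6 of the 20 were lower at an unadjusted p under 0.05, against 6.07% of all genes. These include Il10, whose call is not used as support for the reason given above.

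The receptors of the members gave little signal. Of 11 tested, 10 were negative with a median of -0.25, 0 passed at an unadjusted p under 0.05, and 1 had the same 3 high libraries. Il6st, which encodes gp130, was at 78.0 to 357 CPM in control and 212 to 352 CPM in 2-DG (-0.05 ± 0.40). Cxcr1 had 0 counts in every library. The median of the receptors was -0.28 without control replicate 2, and 1 of 11 was lower at an unadjusted p under 0.05. Of 16 genes of the gp130, JAK and STAT3 response, 11 were negative (median -0.09) and 1 passed at an unadjusted p under 0.05, Socs1, a feedback inhibitor of JAK kinases (-1.22 ± 0.55). Stat3 itself was at 159 to 430 CPM in control and 230 to 558 CPM in 2-DG (0.28 ± 0.34). This list had a median of -0.17 without control replicate 2, with 4 lower and 1 higher at an unadjusted p under 0.05.

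Among 16 NF-kB subunits and IKK genes, 9 were negative (median -0.09). Map3k14, the kinase of the noncanonical NF-kB branch, was lower at an unadjusted p of 0.00717 (-1.14 ± 0.34, edgeR adjusted p = 0.526), at 44.9, 25.4, 50.5, 61.7 and 94.2 CPM in control and 20.8, 28.8, 21.5 and 29.6 CPM in 2-DG. Irak1, a kinase below interleukin-1 and Toll-like receptors, was higher at an unadjusted p of 0.0332 (0.63 ± 0.26, edgeR adjusted p = 0.656). Nfkb1, which is itself a target of NF-kB, was -0.29 ± 0.59. Leaving out control replicate 2 gave a median of -0.27, with 2 lower and 1 higher at an unadjusted p under 0.05. Among 21 NF-kB inhibitors and target genes, 14 were negative (median -0.47), 15 had the same 3 high libraries, and 3 were lower at an unadjusted p under 0.05: Cd83 (-1.53 ± 0.54), Birc2 (-0.60 ± 0.25) and Nfkbid (-0.89 ± 0.39). Icam1, the leukocyte adhesion molecule, was at 22.2 to 1163 CPM in control and 66.2 to 725 CPM in 2-DG (-1.11 ± 1.04). For these targets the median without control replicate 2 was -0.71, and 5 were lower at an unadjusted p under 0.05.

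Interferon-induced genes that accompany Cxcl10 were negative in 15 of 16 cases, against 50.8% of all genes, with a median of -0.85. Of these, 2 were lower at an unadjusted p under 0.05, Ifit3 (-1.52 ± 0.60, edgeR adjusted p = 0.646) and Ifit2 (-1.10 ± 0.49, edgeR adjusted p = 0.689). Ifit3 measured 174, 23.9, 144, 322 and 341 CPM in control and 49.6, 91.2, 52.6 and 86.2 CPM in 2-DG. As with Cxcl10, control replicate 2 was the lowest control and lay below every 2-DG library. For Ifit3, but not for Cxcl10, the other 4 controls lay above all 2-DG libraries. Its near-identical copy Ifit3b can share its reads. Without control replicate 2, 7 of the 16 were lower at an unadjusted p under 0.05, against 6.07% of all genes, and the median was -1.10, against 0.03 for all genes. In 2-DG replicate 4 the list summed to 1174 CPM, against 2209 and 2390 CPM in control replicates 4 and 5, whereas the chemokine members summed to 4817 CPM there, against 3650 and 4857 CPM.

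Of 8 genes that control the decay of cytokine transcripts, 4 were negative (median 0.07). Zfp36, which encodes tristetraprolin, the protein that binds AU-rich elements and speeds this decay, was lower at an unadjusted p of 0.0363 (-1.51 ± 0.63, edgeR adjusted p = 0.664). It measured 202, 42.1, 273, 428 and 645 CPM in control and 81.2, 116, 69.0 and 181 CPM in 2-DG. Hnrnpd, by mean CPM the most abundant of the list in 2-DG and the next after Zfp36 in control, was 0.16 ± 0.22. Leaving out control replicate 2 gave a median of -0.05, and Zfp36 was again the 1 gene lower at an unadjusted p under 0.05 (-1.80).

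Genes with the most similar pattern were found for each member by Pearson's r of log2 CPM across the 9 libraries, which share the same 3 high libraries and the same scaling. Ccl2 was closest to Ccl7 (r = 0.995), and Ccl3 and Ccl4 were closest to each other (r = 0.996). Cxcl10 was closest to Vcam1 (r = 0.991), an endothelial adhesion molecule. Il6 was closest to Srgn (r = 0.978), Lif to Cebpd (r = 0.969), Nfkbia to Gna13 (r = 0.994) and Cxcl1 to Chic2 (r = 0.987). The Il1b pattern was closest to the low-count Kdm4d (r = 0.952). Tnfaip3 was closest to H1foo (r = 0.982), with Crxos also among its 3 nearest genes (r = 0.978), and none of the 3 was another member.

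Markers of cells that can make these transcripts were read in the same libraries. The sum over the microglial list (14 of 15 markers tested, none at 0 in every library) was 40.7 to 103 CPM in control and 48.4 to 138 CPM in 2-DG. In the 3 libraries high for the members it was 45.1, 51.3 and 74.4 CPM, inside the range of the other libraries, and 0 of 14 microglial markers had those 3 high libraries. The endothelial and pericyte sum (10 of 10 tested) was 426 to 2258 CPM in control and 579 to 2835 CPM in 2-DG. It was 1263, 2258 and 2835 CPM in the 3 high libraries, against at most 1272 CPM in the other 6, and 2 of 10 markers, Cdh5 and Cldn5, had the same 3 high libraries. At an unadjusted edgeR p under 0.05, microglial Ctss (1.19 ± 0.50) and endothelial Tek (1.32 ± 0.57) were higher in 2-DG. That was 1 of 14 and 1 of 10 markers, against 2.42% of all genes, and 0 were lower. Neither list had a call without control replicate 2.

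Of 12 Müller glia markers, 0 had that pattern, and their sum was 2760 to 8865 CPM in control and 1799 to 5082 CPM in 2-DG. Of these 12 markers, 8 were negative, and at an unadjusted p under 0.05 3 were lower, the transcription factor Sox9 (-2.20 ± 0.57, edgeR adjusted p = 0.524), the glutamate transporter Slc1a3 (-1.07 ± 0.47) and glutamine synthetase Glul (-1.28 ± 0.58), and 1 was higher, the intermediate filament Vim (0.67 ± 0.29). Without control replicate 2 there were 2 lower and 0 higher. The rod sum (10 of 10) was 5336 to 45954 CPM in control and 8041 to 17653 CPM in 2-DG, with 0 of 10 rod markers high in those 3 libraries. Blood leukocyte markers summed to 9.67 to 14.7 CPM in control and 9.83 to 18.0 CPM in 2-DG, with 4 of 12 tested and S100a9 at 0 in every library. None of the 8 marker sums differed between the groups in an exact two-sided permutation test (adjusted p = 0.853 to 0.929, smallest possible p = 0.00794). The unadjusted exact permutation p was 0.587 for the endothelial sum and 0.651 for the microglial sum. The mitochondrial percent was 6.68, 9.97 and 13.6 in the 3 high libraries, 10.7 in control replicate 2, and 3.40 to 6.05 in the other 5. The part of vessel RNA and of the mitochondrial percent in the levels of the members was not tested.

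**Figure D5:**
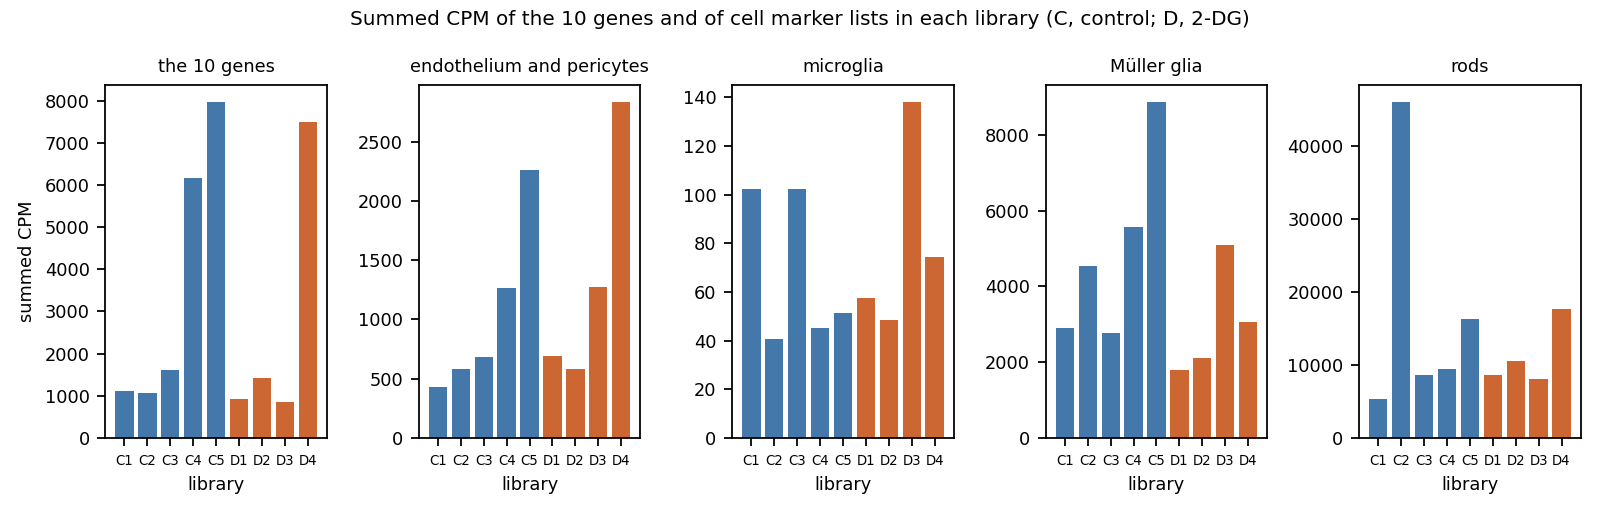
Summed CPM of the 10 genes and of the endothelial, microglial, Müller glia and rod marker lists in each library, on linear axes from 0, with C for control (blue) and D for 2-DG (orange). The 10 genes are high in C4, C5 and D4, the endothelial list is highest in D4 and C5, the microglial list is highest in D3, and the rod list is highest in C2.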

How the data were processed

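RNA-seq of 9 mouse retinal explant libraries (5 control, 4 2-DG) was re-analysed. Groups and replicate numbers came from the sample titles, which call the libraries biological replicates, and the labels give batch 1 for all. Total RNA was made into stranded libraries. The authors deposited estimated counts per gene and transcript, not scaled between libraries, and the submitters' processing notes name kallisto and GRCm38 without a version or role. How gene values were formed from transcripts is not given in the sources used here. The authors also deposited a CPM signal for 12568 genes, on a scaled library size, which holds 9 of the 10 members (not Il1b) and served as an alternative, and a table of their own comparison (fold changes and p-values), which was not used.

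Estimated counts were rounded (a change of at most 0.00377% of a total), filtered with filterByExpr, scaled with TMM and tested with edgeR 4.0.16 in R 4.3.3 (glmQLFit with legacy=TRUE, glmQLFTest) over 21049 genes, with Benjamini-Hochberg adjustment and a threshold of 0.05. The fit without control replicate 2 kept 20632 genes. The standard error is the log2 fold change divided by the square root of F. Alternatives used DESeq2 1.42.0 and limma 3.58.1. A floor of 3 counts is 0.0556 to 0.255 CPM. The test was checked on simulated data. Promoters are from RefSeq (GRCm38.p6) and gene coordinates from GENCODE M21 on GRCm38, and 99.4% of gene IDs had a symbol. RefSeq windows of Ccl2 and Ccl4 were not used here.

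The 10 members and all gene lists were chosen with earlier results of these data known. Named were every member, and from the others of the 11 pathway lists and 8 marker lists some genes with a small p, abundant genes and those at 0 in every library. Cdh5 and Cldn5 were named for sharing the 3 high libraries. Not every gene with a small p or a high level is named, and some lists have none named. Genes with a similar pattern were the 3 protein-coding genes with the highest r per member. Mouse sex was not given, and whether separate animals gave each library is stated only as biological replicate.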

Additional observations from a re-analysis of the deposited data

Results flagged for a closer look

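In 9 of the 10 members (all but Lif), 2-DG replicate 4 stood farther from the other 3 2-DG libraries than Dixon's 95% limit allows. Its levels were 1378 CPM for Ccl2, 232 CPM for Ccl3, 87.5 CPM for Ccl4, 2990 CPM for Cxcl1, 129 CPM for Cxcl10, 4.06 CPM for Il1b, 896 CPM for Il6, 1186 CPM for Nfkbia and 360 CPM for Tnfaip3. The control group of the same genes had no single outlying library by this limit. Where 2 libraries are high together, as control replicates 4 and 5 were, each can hide the other from it. The controls are therefore not shown to be free of outlying libraries. Among the marker lists, the rod sum of control replicate 2 was 45954 CPM, against 5336 to 16337 CPM in the other controls. In all, 10 of 36 groups of libraries met this limit. Chance flags about 1 in 20 groups of normally distributed values, and CPM values on a linear scale need not be so distributed. That rate is therefore only a rough guide. The 9 members' values are from the same library and are not independent.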

How the results depend on the processing

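The log2 fold changes of Ccl2, Cxcl10, Il1b, Lif and Tnfaip3 stayed negative in every alternative that gave a value. Without single libraries the range was -3.91 to -2.04 for Cxcl10 and -1.43 to -0.69 for Lif. The sign turned for the other 5: without single libraries the range was -2.31 to 0.53 for Ccl3, -2.27 to 0.45 for Ccl4, -2.02 to 0.81 for Cxcl1, -1.34 to 0.43 for Il6 and -1.60 to 0.0034 for Nfkbia, the lowest value always without 2-DG replicate 4 and the highest without control replicate 5. Cxcl1 was -0.19 with library size only, -0.087 with upper-quartile scaling, -0.033 with at least 10 counts in every library, -1.32 with limma-voom weights, and -0.37 with the deposited CPM at either pseudocount (1 or 0.1). Members called at an unadjusted p under 0.05 numbered 0 to 6 without single libraries (0 without control replicate 4 or 5 or 2-DG replicate 1, 2 or 3), 7 with limma-voom weights (15.4% of all genes were lower there) and 0 with the deposited CPM at either pseudocount. After adjustment there were 2 with limma-voom weights and 0 in the other alternatives. Non-overlapping members numbered 0 to 1 without single libraries. The 1 was Il1b without 2-DG replicate 4. Il1b is also among the 6, and both rest on its very low 2-DG counts. The median log2 fold change of the members ran from -1.85 without 2-DG replicate 4 to -0.05 without control replicate 5. With the replicate number as a block (replicates 1 to 4), Ccl3 was 0.045 and Il6 0.54. In it 1 member, Il1b, was lower at an unadjusted p under 0.05, against 3.06% of all genes, while Cxcl10 (-1.77) was not. Il1b had 0, 5 and 1 counts in 2-DG replicates 1 to 3, so its call is not used as support and its fold is left out. In that fit Lif was -0.37, Ccl2 -0.089, Nfkbia -0.19, Ccl4 -0.096, Cxcl1 0.28 and Tnfaip3 -0.60. Correlations of same-numbered libraries were 0.45, -0.15, 0.10 and 0.21, not every one above 0.1, and not every library correlated best with its own number, so the numbers were not taken to pair the samples. The Müller glia sum stayed lower in 2-DG, at -0.983 to -0.444 without single libraries, and passed no test. Other sums turned sign: without single libraries the difference of mean log2 sums was -0.152 to 0.119 for leukocytes (-0.0466 with library size only), -0.0884 to 0.409 for microglia, -0.122 to 0.638 for astrocytes, -0.113 to 0.689 for endothelium and pericytes, -0.133 to 1.64 for the pigment epithelium and -0.563 to 0.213 for rods (0.213 without control replicate 2). The causes of these shifts were not tested. At least 10 counts in every library left out Il1b, which the deposited CPM also lacks.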
